A study of Homo sapiens with 12 samples.

Results

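Protocadherins are the largest group within the cadherin superfamily of calcium-dependent adhesion proteins. The members were all protein-coding genes whose GENCODE symbol begins with PCDH, apart from PCDH11Y, and 65 of 60554 gene IDs met this rule (of 19664 protein-coding genes). They fell into 15 alpha (PCDHA), 16 beta (PCDHB) and 22 gamma (PCDHG) genes, together 53 genes that lie side by side on chromosome 5 between 140786136 and 141512981 (GRCh38), and 12 non-clustered genes elsewhere, which here include PCDH1 and PCDH12 further along the same chromosome.

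RNA was measured in HEK293 cells, a human embryonic kidney line whose cell line label reads HEK293T, at passage 10 in every library. The groups were RBM17 knockdown, U2SURP knockdown and CHERP knockdown, each made with a SMARTpool:ON-TARGETplus siRNA pool against the named gene, and control siRNA, made with ON-TARGET plus Non-targeting siRNA #3, whose label names no pool. Each group had 3 libraries, 12 in all, and no label says that these came from separate cultures, so the p-values measure the spread between libraries, which may be technical. RBM17, U2SURP and CHERP are splicing factors associated with the U2 small nuclear ribonucleoprotein, and the comparisons ask which transcripts change in level when each is depleted.

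Neurons choose few promoters of the clustered genes per cell, and the encoded proteins act as surface identity tags in self-recognition. In the alpha and gamma clusters each gene supplies its own long first exon, which is joined to constant exons shared by the cluster, while each beta gene is a unit of its own. Promoter choice in the clusters is known to depend on CTCF and cohesin, and on DNA methylation. The non-clustered genes, most of them called delta protocadherins, encode single proteins that take part in cell sorting and in control of the actin cytoskeleton.

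Total counts per library ranged from 252505520 to 320986785. The targeted genes were lower in their own knockdowns, by a log2 fold change of -2.12 ± 0.05 for RBM17, -1.71 ± 0.06 for U2SURP and -1.77 ± 0.05 for CHERP (± SE, 3 libraries per group, edgeR adjusted p = 1.37e-19, 7.05e-15 and 4.45e-17). Kidney lineage markers reported for these cells were present, with 8 of 9 at 1 CPM (counts scaled to the library total) or more. No member was at 0 in every library, but 15 of 65 had too few counts to be tested, at most 60 counts summed over the 12 libraries. The untested genes were PCDHA1 to PCDHA9, PCDHAC2, PCDHB1, PCDHB3, PCDHB7, PCDH11X and PCDH20. Of the 50 tested, 35 stood above the minimum of the filter in all 4 groups, and 5 (PCDHA13, PCDHAC1, PCDHB5, PCDHB6 and PCDHGA8) stood above it in 1 group alone, so the counts below do not speak for all members.

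A feature of most clustered promoters, which the choice of members did not use, was the letters CGCT upstream of the gene start. These letters form the core of a longer conserved promoter element known to be bound by CTCF, and only the letters were searched here. RefSeq promoters (250 bases before to 50 after the gene start, GRCh38.p14) were found for 57 of 65 members. The letters CGCT on the gene's strand, starting 30 to 90 bases before the gene start, were found in 12 of 13 alpha promoters, 12 of 14 beta promoters and 18 of 20 gamma promoters, against 3 of 10 non-clustered promoters and 19.2% of all 27305 promoters. At any position and on either strand, CGCT was found in 97.9% of clustered promoters and 69.3% of all promoters. The window was chosen after the promoters had been read. The following 40 bases around these letters are shown for some of the members described below, and the list is not complete. Of the clustered members described below, PCDHB8 and PCDHGB2 were among those without CGCT in the window. All 14 beta and all 20 gamma promoters, these included, held CGCT at some position on either strand. PCDHA13, PCDHB6, PCDHB11 and PCDHGC5 had no promoter entry. Others, such as PCDH18, hold the letters but are not shown. Whether the letters bear on the transcript levels was not tested. A match of 4 letters is a description and not a binding site. It does not show that a promoter, for example that of PCDHGC4, holds the longer element. In each entry 1 CGCT, the one nearest 60 bases before the gene start, is in capitals (PCDHGB5, PCDHGC3 and PCDH19 hold 2 in the window), and all alpha, beta and gamma entries are on the plus strand.
PCDHA11 (chr5:140868881-140868920): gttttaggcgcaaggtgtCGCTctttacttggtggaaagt
PCDHA12 (chr5:140875242-140875281): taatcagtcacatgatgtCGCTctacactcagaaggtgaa
PCDHAC1 (chr5:140926218-140926257): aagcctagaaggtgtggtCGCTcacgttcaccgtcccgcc
PCDHB12 (chr5:141208641-141208680): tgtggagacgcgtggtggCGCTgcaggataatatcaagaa
PCDHB14 (chr5:141223261-141223300): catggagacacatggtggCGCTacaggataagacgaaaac
PCDHB15 (chr5:141245312-141245351): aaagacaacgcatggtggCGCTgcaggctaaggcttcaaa
PCDHGA8 (chr5:141392566-141392605): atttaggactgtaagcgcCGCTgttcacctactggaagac
PCDHGA11 (chr5:141420970-141421009): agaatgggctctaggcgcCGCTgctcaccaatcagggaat
PCDHGB1 (chr5:141350023-141350062): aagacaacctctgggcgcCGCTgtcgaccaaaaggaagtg
PCDHGB5 (chr5:141397861-141397900): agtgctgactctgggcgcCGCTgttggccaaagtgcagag
PCDHGC3 (chr5:141475897-141475936): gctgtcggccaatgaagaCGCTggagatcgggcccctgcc
PCDHGC4 (chr5:141484950-141484989): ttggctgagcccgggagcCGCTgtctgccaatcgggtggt
PCDH19 (chrX:100410328-100410367, minus strand): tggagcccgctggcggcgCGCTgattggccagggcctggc

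The letters around CGCT differed by class. GTGGCGCT, searched on both strands over the whole promoter, was present in 13 of 14 beta promoters and in no alpha, gamma or non-clustered promoter, and in 1.16% of all promoters. ATGTCGCT was present in 9 of 13 alpha promoters, in no other protocadherin promoter and in 0.249% of all promoters. CGCTGTT was present in 13 of 20 gamma promoters, 1 of 14 beta promoters and 2.29% of all promoters. These runs contain CGCT and were read off the aligned windows, so they describe these promoters and no more.

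Summed levels show how each class stood in the 4 groups. The 15 alpha genes summed to 0.746, 0.824 and 0.585 CPM in RBM17 knockdown, 0.285, 0.368 and 0.293 CPM in U2SURP knockdown, 0.0887, 0.218 and 0.177 CPM in CHERP knockdown and 0.281, 0.226 and 0.256 CPM in control libraries. The 16 beta genes summed to 3.58, 3.65 and 3.76 CPM in RBM17 knockdown, 3.5, 3.52 and 3.67 CPM in U2SURP knockdown, 1.75, 1.75 and 1.98 CPM in CHERP knockdown and 3.18, 3.32 and 3.44 CPM in control libraries. Thus the alpha and beta sums lay below every control library in CHERP knockdown, at 63.5% and 55.1% of the control mean. They lay above every control library in RBM17 knockdown, at 283% and 111%. For beta the lowest such library had 3.58 CPM and the highest control 3.44 CPM, and 1 of 13 tested beta genes was called higher. PCDHA11 held 37.3% of the alpha sum over the 12 libraries. In U2SURP knockdown the alpha and beta sums were at 124% and 108%. There the lowest library was barely above the highest control (0.285 against 0.281 CPM for alpha, 3.5 against 3.44 CPM for beta). No alpha gene was called in U2SURP knockdown. The 22 gamma genes summed to 16.7, 17.7 and 16.3 CPM in RBM17 knockdown, 12.5, 13.8 and 13.5 CPM in U2SURP knockdown, 13.5, 14.9 and 14.5 CPM in CHERP knockdown and 20.3, 18.9 and 20.1 CPM in control libraries. The gamma sum was below every control library in all 3 knockdowns, at 85.3%, 66.9% and 72.3% of the control mean for RBM17, U2SURP and CHERP knockdown. The 12 non-clustered genes held most of the reads of the family, with 63.7, 61.5 and 61.9 CPM in RBM17 knockdown, 49.4, 46.5 and 44.4 CPM in U2SURP knockdown, 50, 44.2 and 44.6 CPM in CHERP knockdown and 64.8, 61.7 and 65.1 CPM in control libraries. Their sum was 73.3% and 72.5% of control in U2SURP and CHERP knockdown, while RBM17 knockdown overlapped control at 97.7% (101% when scaled with DESeq2 size factors). These sums are descriptions of chosen genes and carry no test. In bulk RNA, fewer cells that make a transcript and less of it per cell cannot be told apart.

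**Figure D1:**
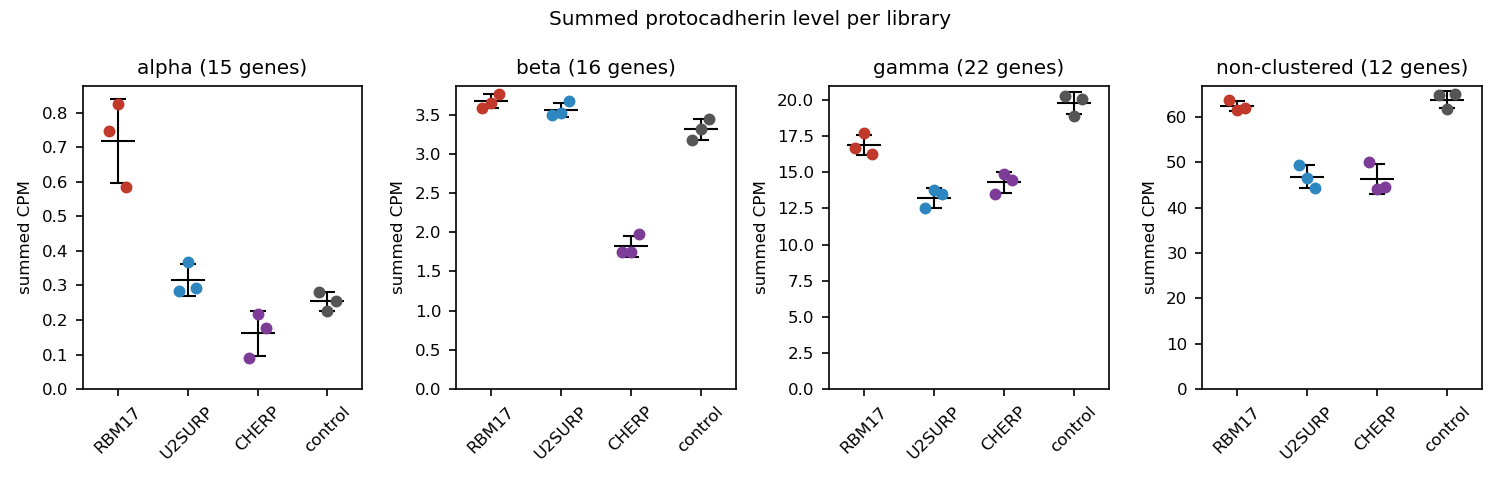
Summed CPM of each protocadherin class (vertical axis, starting at 0) in the RBM17, U2SURP and CHERP knockdown and control siRNA libraries; points are libraries, bars are mean ± SD (n = 3). The alpha sum was 283% of the control mean in RBM17 knockdown, and the beta sum was 55.1% of it in CHERP knockdown.

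CHERP knockdown lowered the most members: 27 of the 50 tested were lower than control and 0 were higher (edgeR quasi-likelihood test, adjusted p under 0.05), where 24.6% of all 29003 tested genes were lower and 22.8% were higher (47.3% in either direction). At an unadjusted p under 0.05, 32 members were called, and the DESeq2 Wald test called 24 lower and 1 higher, PCDH12. The members called lower were 3 of 5 alpha, 8 of 13 beta, 9 of 22 gamma and 7 of 10 non-clustered genes, or 54% of those tested. Their median log2 fold change over all 50 was -0.56, against -0.00353 over all tested genes. U2SURP knockdown lowered 12 members and raised 2 (PCDHB15, and PCDHGA8, which stood above the minimum of the filter in all 3 libraries of this group alone), where 22.2% of all tested genes were lower and 21.1% higher (43.3% together). The 12 were 6 gamma and 6 non-clustered genes, and the median was -0.15 over the 50 members and -0.02 over all tested genes. In RBM17 knockdown 6 members were higher and 6 lower, where 25.4% of all tested genes were higher and 29.3% lower (54.7% together). The higher ones were 3 alpha genes and 1 of each other class, among them PCDHA13 and PCDHB6, which stood above the minimum of the filter in all 3 libraries of RBM17 knockdown alone, and the lower ones were 3 gamma and 3 non-clustered genes. All 3 comparisons use the same 3 control libraries.

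**Figure D2:**
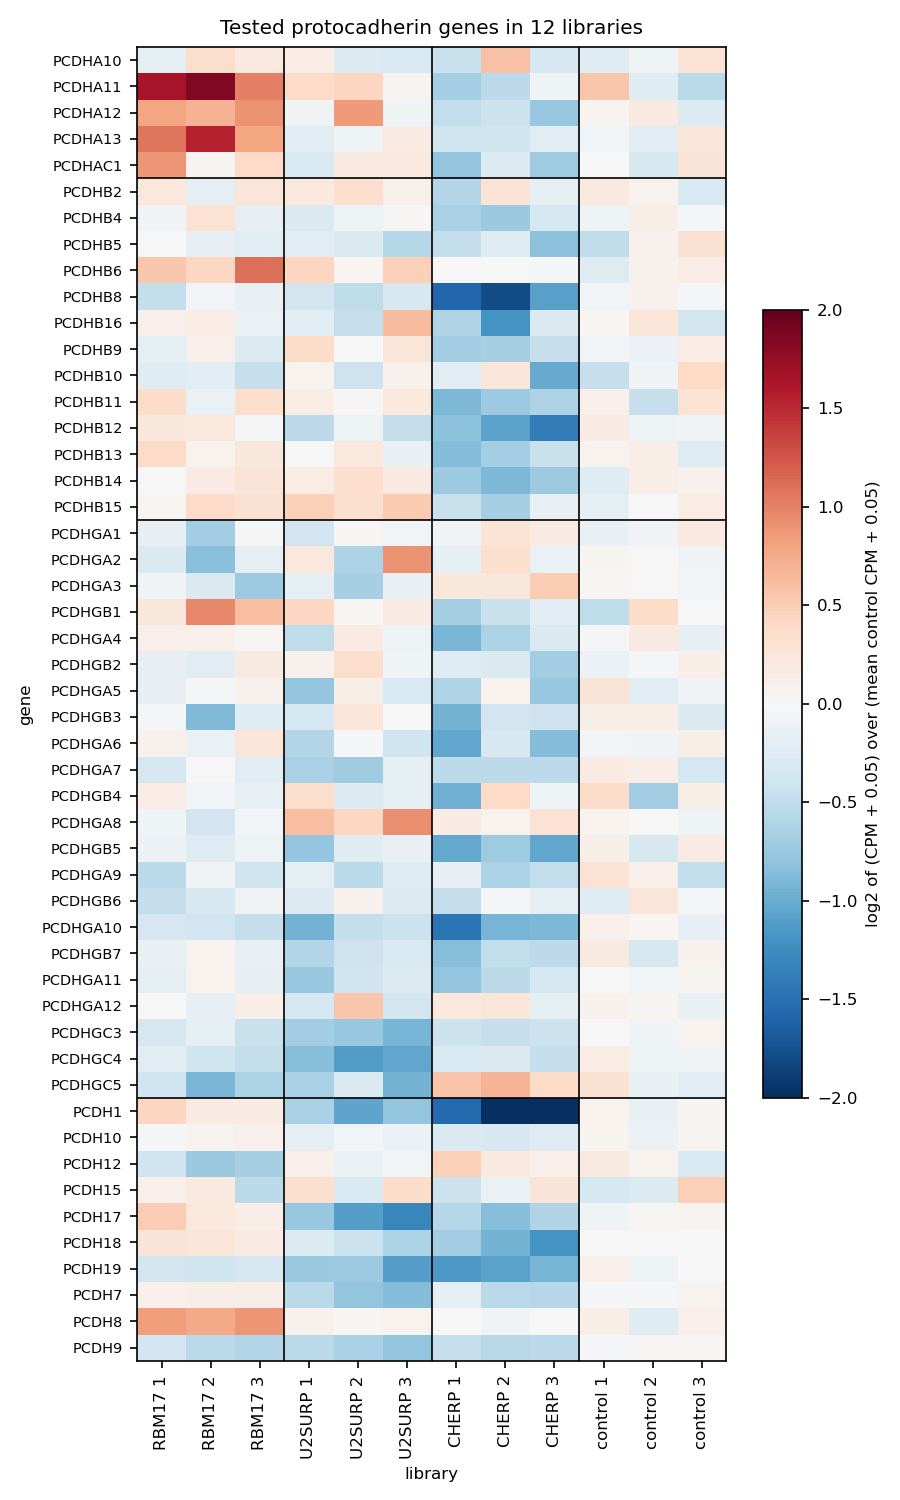
The 50 tested members (rows, in order along the cluster and then the non-clustered genes) in the 12 libraries (columns: RBM17, U2SURP and CHERP knockdown, then control). Colour is the log2 ratio of CPM + 0.05 to the control mean + 0.05, limited at ± 2; the CHERP columns are blue in most beta rows and the RBM17 columns are red in PCDHA11 to PCDHA13.

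The knockdowns were also set against each other in the same fit of all 4 groups. RBM17 knockdown exceeded CHERP knockdown in 27 members and was lower in 3, where 26.1% and 25.5% of all tested genes were called in these directions (51.6% together). It exceeded U2SURP knockdown in 13 members and was lower in 2, where 23% and 21.5% of all genes were called (44.5% together). U2SURP knockdown exceeded CHERP knockdown in 15 members and was lower in 4, where 15% and 12.9% of all genes were called (27.9% together).

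The alpha genes encode cell-surface recognition proteins with shared cytoplasmic ends. They were the least abundant class, and only PCDHA11 averaged 0.1 CPM or more over the 12 libraries. Because each library holds few of their reads, counts are given. PCDHA11 had 104, 105 and 56 counts in RBM17 knockdown, 32, 38 and 23 in U2SURP knockdown, 8, 11 and 21 in CHERP knockdown and 40, 16 and 9 in control libraries. All RBM17 knockdown libraries were above all others, and the difference from control was a log2 fold change of 2.04 ± 0.40 (adjusted p = 0.000141). PCDHA11 in CHERP knockdown overlapped control (-0.77 ± 0.46, adjusted p = 0.181). PCDHA13 had 27, 37 and 18 counts in RBM17 knockdown, 2, 4 and 7 in U2SURP knockdown, 0, 0 and 2 in CHERP knockdown and 4, 2 and 7 in control libraries. It was called higher in RBM17 knockdown (2.60 ± 0.70, adjusted p = 0.0028), the only group with libraries above the minimum of the filter, so this gene could be tested only because it was high there. Its call in CHERP knockdown was at the threshold (adjusted p = 0.049) and was lost under 9 of 11 alternatives, among them leaving out CHERP knockdown library 1 (adjusted p = 0.143), CHERP knockdown library 2 (0.157), control library 1 (0.0692) or control library 3 (0.199).

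PCDHA12 had 32, 25 and 33 counts in RBM17 knockdown, 10, 36 and 10 in U2SURP knockdown, 4, 5 and 1 in CHERP knockdown and 13, 15 and 6 in control libraries. The RBM17 knockdown libraries were above control and the CHERP knockdown libraries below it without overlap (adjusted p = 0.0354 and 0.0326). The first call was lost without any 1 of the RBM17 knockdown libraries or without control library 1 or 3 (adjusted p 0.0552 to 0.12), and the second without CHERP knockdown library 3 (0.128) or control library 1 (0.0719) or 2 (0.109). PCDHAC1, a C-type gene that differs in sequence from the other alpha genes and lies at the end of the cluster, had 37, 12 and 20 counts in RBM17 knockdown, 7, 18 and 16 in U2SURP knockdown, 1, 8 and 2 in CHERP knockdown and 13, 7 and 15 in control libraries. PCDHAC1 in RBM17 knockdown overlapped control (adjusted p = 0.207), and its lower call in CHERP knockdown (adjusted p = 0.0471) was lost without CHERP knockdown library 1 (0.166) or 3 (0.149) or control library 1 (0.0911) or 3 (0.158). In the direct contrast of RBM17 and CHERP knockdown the 4 genes differed, with adjusted p = 6.1e-06 for PCDHA11, 0.000189 for PCDHA12, 3.47e-05 for PCDHA13 and 0.00219 for PCDHAC1. PCDHA13 passed the filter only because it was high in RBM17 knockdown, so its contrast is no support for that direction. PCDHAC1 stood above the minimum of the filter in all 3 libraries of RBM17 knockdown alone, though single U2SURP knockdown and control libraries also exceeded it. PCDHA10, the remaining tested alpha gene, was called in no comparison.

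The libraries with the higher alpha counts also had higher neuronal markers. In RBM17 knockdown, 10 of 14 neuronal markers were higher and 3 lower than control, and their summed level was 193 to 219 CPM, against 123 to 134 CPM in U2SURP knockdown, 112 to 127 CPM in CHERP knockdown and 117 to 132 CPM in control. SYP, which encodes a synaptic vesicle protein, changed by 1.31 ± 0.07 in RBM17 knockdown, -0.31 ± 0.07 in U2SURP knockdown and -1.40 ± 0.07 in CHERP knockdown on the log2 scale. Of the 14, 3 were higher and 3 lower in U2SURP knockdown, and 2 were higher and 6 lower in CHERP knockdown. Over all tested genes 25.4% were higher and 29.3% lower in RBM17 knockdown, 21.1% and 22.2% in U2SURP knockdown and 22.8% and 24.6% in CHERP knockdown. TUBB3, SYT1 and ELAVL3 were lower in RBM17 knockdown, and RBFOX3 and ELAVL3 were higher in CHERP knockdown. Of the 14 markers, ELAVL3, ELAVL4 and DCX averaged under 0.1 CPM over the 12 libraries, and 7 averaged 1 CPM or more. ELAVL3 had 0.213, 0.235 and 0.129 CPM in CHERP knockdown. The part of these genes in the alpha result was not tested.

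The reads of an alpha or gamma gene come from exons of which part is shared. PCDHA11 has 6284 exonic bases, of which 3360 belong to no other gene on its strand, and its remaining exons are shared with 14 genes; PCDHGC3 has 5432, of which 3251 are its own, and shares the rest with 21 genes. How reads in shared exons were assigned is not given in the sources used here. Some members also overlap exons of a gene on the other strand, among them PCDHA12 (577 bases), PCDHA13 (435) and PCDHGB1 (554). Whether counting used strand is not given either, so reads from those genes may be included. PCDHA4 carries the same shared exons as PCDHA11 and had 5 counts over the 12 libraries, so reads in the shared exons were not added to every alpha gene.

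**Figure D3:**
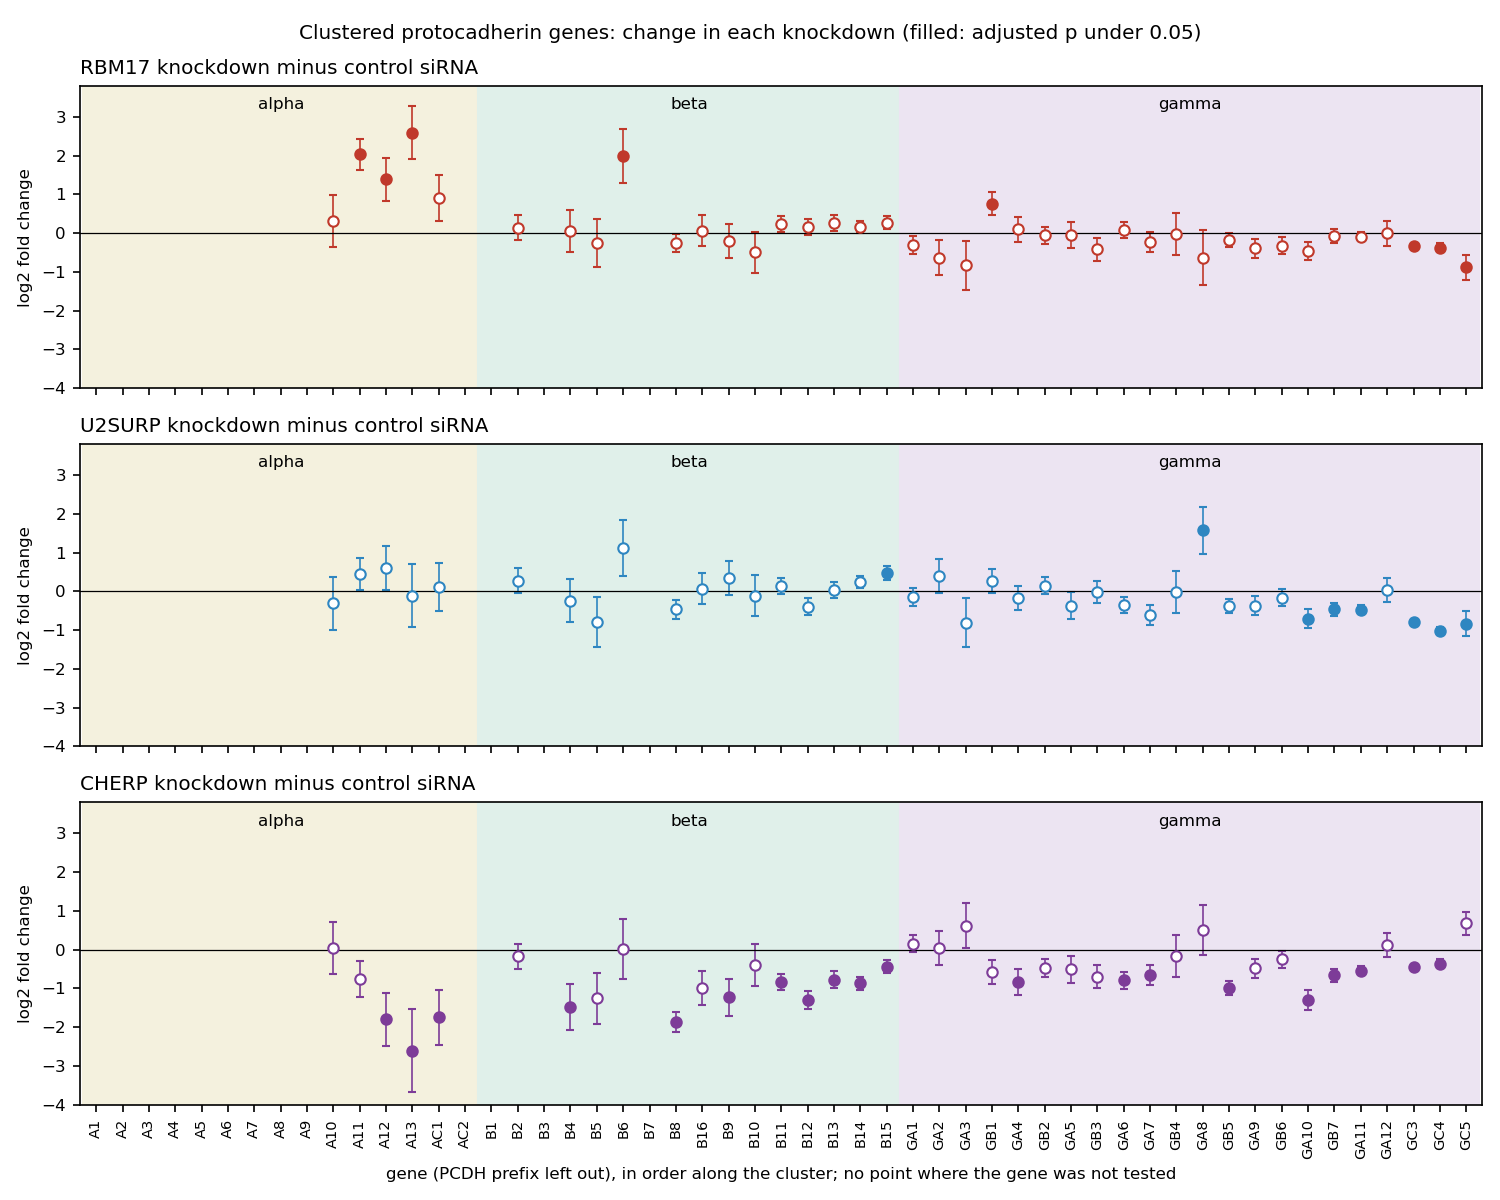
Log2 fold change (± SE) of the tested clustered genes in their order along chromosome 5, for RBM17, U2SURP and CHERP knockdown, each against control siRNA (3 libraries per group). Filled points passed an adjusted p of 0.05; the CHERP panel has 20 filled points, none above 0, and the RBM17 panel has 3 filled alpha points above 0.

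The beta genes, single-exon units that encode adhesion proteins without the shared constant end, were the class most lowered by CHERP knockdown in the summed level. PCDHB8 had 0.233, 0.331 and 0.305 CPM in RBM17 knockdown, 0.256, 0.228 and 0.265 CPM in U2SURP knockdown, 0.0816, 0.0637 and 0.136 CPM in CHERP knockdown and 0.331, 0.369 and 0.333 CPM in control libraries. The CHERP knockdown libraries lay below all others, with a log2 fold change of -1.87 ± 0.27 against control (adjusted p = 3.31e-06). Of the 50-base stretches of PCDHB8, 45.1% also occur in another gene, so its level is less certain than that of its neighbours. PCDHB12 had 0.450, 0.447 and 0.370 CPM in RBM17 knockdown, 0.249, 0.350 and 0.258 CPM in U2SURP knockdown, 0.192, 0.154 and 0.113 CPM in CHERP knockdown and 0.428, 0.348 and 0.357 CPM in control libraries. CHERP knockdown was again the lowest group without overlap (-1.31 ± 0.23, adjusted p = 5.43e-05). PCDHB12 in U2SURP knockdown had values that overlapped control (-0.40 ± 0.22, adjusted p = 0.154).

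PCDHB14 had 0.618, 0.697 and 0.746 CPM in RBM17 knockdown, 0.691, 0.787 and 0.701 CPM in U2SURP knockdown, 0.351, 0.308 and 0.352 CPM in CHERP knockdown and 0.514, 0.681 and 0.654 CPM in control libraries. The CHERP knockdown libraries were below every other library (-0.87 ± 0.17 against control, adjusted p = 0.000125). PCDHB11 had 0.637, 0.435 and 0.624 CPM in RBM17 knockdown, 0.538, 0.490 and 0.565 CPM in U2SURP knockdown, 0.234, 0.271 and 0.297 CPM in CHERP knockdown and 0.518, 0.334 and 0.589 CPM in control libraries. It was lower in CHERP knockdown (-0.84 ± 0.21, adjusted p = 0.00221), with no overlap. PCDHB15, the most abundant beta gene, with 19.7% of the class sum, had 0.582, 0.751 and 0.710 CPM in RBM17 knockdown, 0.801, 0.715 and 0.830 CPM in U2SURP knockdown, 0.401, 0.338 and 0.503 CPM in CHERP knockdown and 0.494, 0.563 and 0.633 CPM in control libraries. It was called higher in U2SURP knockdown (0.47 ± 0.17, adjusted p = 0.0271) and lower in CHERP knockdown (-0.44 ± 0.18, adjusted p = 0.043), although the CHERP and control libraries overlapped. The U2SURP call was lost without U2SURP knockdown library 1 (adjusted p = 0.0798) or 3 (0.0907) or control library 1 (0.125) or 2 (0.0649), and the CHERP call without CHERP knockdown library 1 (0.0972) or 2 (0.211) or control library 2 (0.0845) or 3 (0.15). The direct contrast of U2SURP and CHERP knockdown for PCDHB15 was 0.91 ± 0.17 (adjusted p = 0.00028).

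Of the 15 members higher in U2SURP than in CHERP knockdown, 7 were beta genes, among them PCDHB14 at 1.11 ± 0.17 (adjusted p = 1.68e-05), PCDHB8 at 1.41 ± 0.27 (0.000336), PCDHB11 at 0.99 ± 0.21 (0.000987) and PCDHB12 at 0.91 ± 0.23 (0.00498) on the log2 scale. In RBM17 knockdown PCDHB6 was the beta gene called, with 13, 9 and 24 counts, against 10, 5 and 11 in U2SURP knockdown, 4, 4 and 4 in CHERP knockdown and 1, 5 and 5 in control libraries. The RBM17 knockdown call for PCDHB6 (adjusted p = 0.019) was lost without RBM17 knockdown library 3 (0.136) or control library 1 (0.114), and RBM17 knockdown was its only group with all 3 libraries above the minimum of the filter. PCDHB13 was also lower in CHERP knockdown (-0.77 ± 0.22, adjusted p = 0.00457), under every alternative. The calls of PCDHB4 and PCDHB9 in CHERP knockdown (-1.47 ± 0.60 and -1.23 ± 0.47) were lost without CHERP knockdown library 1 or 2 or control library 1 or 3, and that of PCDHB4 also without control library 2 (adjusted p 0.0683 to 0.17 for PCDHB4 and 0.0591 to 0.0997 for PCDHB9). PCDHB2, PCDHB5, PCDHB10 and PCDHB16 were called in no comparison with control.

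**Figure D4:**
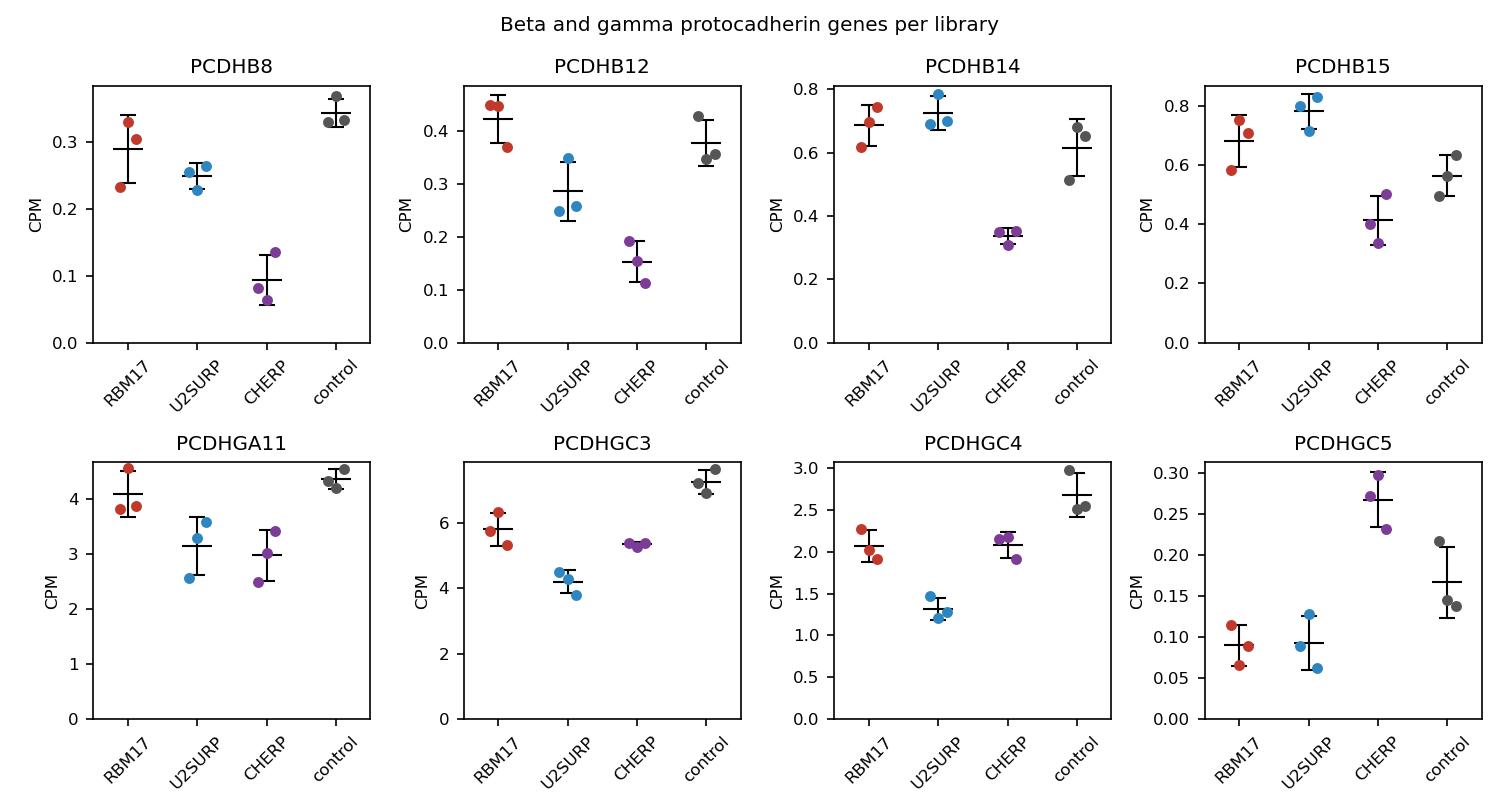
CPM (vertical axes, starting at 0) of 4 beta and 4 gamma genes in RBM17, U2SURP and CHERP knockdown and control siRNA libraries; points are libraries, bars are mean ± SD (n = 3). The CHERP knockdown points are the lowest in PCDHB8, PCDHB12 and PCDHB14, and the U2SURP knockdown points are the lowest in PCDHGC3 and PCDHGC4.

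The 22 gamma genes were all tested, and their C-type genes, at the end of the cluster, come first. PCDHGC3, which in mice is expressed broadly and in the brain promotes dendrite branching, held 35.1% of the gamma sum. Per unique exonic kilobase it had 2.23 ± 0.11 CPM in control (SD, n = 3), the highest of any member in that group. In U2SURP knockdown it had 1.29 CPM per kb and PCDH10 had 1.58. All counts of the gene were divided by its unique bases, so any reads from shared exons would raise its value. PCDHGC3 had 5.74, 6.33 and 5.31 CPM in RBM17 knockdown, 4.48, 4.29 and 3.79 CPM in U2SURP knockdown, 5.39, 5.24 and 5.36 CPM in CHERP knockdown and 7.22, 6.90 and 7.64 CPM in control libraries. Every knockdown library was below every control library, with log2 fold changes of -0.32 ± 0.08, -0.79 ± 0.08 and -0.44 ± 0.08 for RBM17, U2SURP and CHERP knockdown (adjusted p = 0.00194, 7.17e-08 and 9.9e-05), and U2SURP knockdown was lower than CHERP knockdown (-0.35 ± 0.08, adjusted p = 0.00287). PCDHGC4, the gene whose loss in mice reduces survival of cortical interneurons, had 2.28, 2.02 and 1.91 CPM in RBM17 knockdown, 1.47, 1.21 and 1.28 CPM in U2SURP knockdown, 2.16, 2.18 and 1.91 CPM in CHERP knockdown and 2.98, 2.51 and 2.55 CPM in control libraries. It was lowest in U2SURP knockdown (-1.02 ± 0.11, adjusted p = 1.54e-07). Its smaller changes in RBM17 and CHERP knockdown (-0.37 ± 0.11 and -0.36 ± 0.11, adjusted p = 0.00718 and 0.00954) were lost without control library 1 (adjusted p = 0.0616 and 0.0773).

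PCDHGC5, the last gene of the cluster, had 0.115, 0.0655 and 0.0897 CPM in RBM17 knockdown, 0.0890, 0.128 and 0.0628 CPM in U2SURP knockdown, 0.273, 0.298 and 0.232 CPM in CHERP knockdown and 0.217, 0.146 and 0.138 CPM in control libraries. The CHERP knockdown libraries were all above control, but the difference did not pass the test (0.67 ± 0.30, adjusted p = 0.0689). It passed without control library 1 (0.91, adjusted p = 0.039) and in the fit of the 2 compared groups (0.67, adjusted p = 0.0419). RBM17 and U2SURP knockdown were below control (-0.88 ± 0.33 and -0.84 ± 0.32, adjusted p = 0.0242 and 0.039). The RBM17 call for PCDHGC5 was lost without RBM17 knockdown library 2 (adjusted p = 0.104) or 3 (0.0536) or control library 1 (0.15), and the U2SURP call without U2SURP knockdown library 1 (0.0838) or 3 (0.175) or control library 1 (0.213). The direct contrasts held, with PCDHGC5 lower in RBM17 knockdown than in CHERP knockdown by -1.56 ± 0.32 (adjusted p = 0.00022) and lower in U2SURP knockdown than in CHERP knockdown by -1.51 ± 0.31 (adjusted p = 0.000733).

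Among the A- and B-type gamma genes PCDHGA11 was the most abundant, with 3.81, 4.55 and 3.87 CPM in RBM17 knockdown, 2.55, 3.29 and 3.58 CPM in U2SURP knockdown, 2.49, 3.02 and 3.41 CPM in CHERP knockdown and 4.31, 4.19 and 4.54 CPM in control libraries. It was lower in U2SURP and CHERP knockdown (-0.47 ± 0.12 and -0.55 ± 0.12, adjusted p = 0.00234 and 0.0005) and overlapped control in RBM17 knockdown. PCDHGB5 had 0.795, 0.724 and 0.807 CPM in RBM17 knockdown, 0.488, 0.731 and 0.781 CPM in U2SURP knockdown, 0.404, 0.513 and 0.400 CPM in CHERP knockdown and 0.949, 0.685 and 0.978 CPM in control libraries. Its CHERP knockdown libraries were below every control library (-0.99 ± 0.18, adjusted p = 9.9e-05), while U2SURP knockdown overlapped control (-0.38 ± 0.18, adjusted p = 0.0915) and passed the test without control library 2 (-0.53, adjusted p = 0.0315). PCDHGA10, PCDHGB7 and PCDHGA6 were also lower in CHERP knockdown (-1.30 ± 0.25, -0.67 ± 0.18 and -0.79 ± 0.21), under every alternative. The calls of PCDHGA4 and PCDHGA7 (-0.83 ± 0.33 and -0.65 ± 0.26) were lost without CHERP knockdown library 1 or 2 or control library 1 or 2, and that of PCDHGA7 also without CHERP knockdown library 3 (adjusted p 0.0714 to 0.158 for PCDHGA4 and 0.0752 to 0.157 for PCDHGA7). PCDHGB1 had 0.207, 0.374 and 0.283 CPM in RBM17 knockdown, 0.242, 0.172 and 0.195 CPM in U2SURP knockdown, 0.0887, 0.111 and 0.139 CPM in CHERP knockdown and 0.104, 0.233 and 0.170 CPM in control libraries. Its RBM17 and control libraries overlapped, and the higher call (0.77 ± 0.30, adjusted p = 0.0354) was lost without RBM17 knockdown library 2 (0.193) or 3 (0.0615) or control library 1 (0.197) or 3 (0.0656). PCDHGB1 in CHERP knockdown did not pass the test (-0.58 ± 0.32, adjusted p = 0.148) until control library 1 was left out (-0.84, adjusted p = 0.0427).

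PCDHGA8 had 5, 1 and 5 counts in RBM17 knockdown, 16, 14 and 24 in U2SURP knockdown, 8, 7 and 11 in CHERP knockdown and 7, 6 and 4 in control libraries. Its higher call in U2SURP knockdown (adjusted p = 0.0398) was lost when any 1 of the 6 libraries compared was left out (adjusted p 0.0524 to 0.182) and with no filter on low counts (0.108). U2SURP knockdown was its only group with all 3 libraries above the minimum of that filter. PCDHGB2 and PCDHGA3 were named only in direct contrasts. PCDHGB2 averaged 0.347 ± 0.060 CPM in U2SURP knockdown and 0.226 ± 0.045 CPM in CHERP knockdown (SD, n = 3 each; 0.62 ± 0.23 on the log2 scale, adjusted p = 0.0417), and PCDHGA3 averaged 0.0245 ± 0.0163 CPM in RBM17 knockdown and 0.0682 ± 0.0136 CPM in CHERP knockdown (-1.45 ± 0.61, adjusted p = 0.0499). Both calls were lost under leave-one-out, the first without U2SURP knockdown library 1 (0.0649) or 2 (0.198) or CHERP knockdown library 2 (0.0624) or 3 (0.182), and the second without RBM17 knockdown library 2 (0.0913) or 3 (0.202) or any 1 of the CHERP knockdown libraries (0.0737 to 0.17).

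The non-clustered members had the most reads. PCDH1, a delta protocadherin expressed in airway epithelium, lies at 141853111 to 141879246 on the minus strand of chromosome 5 (GENCODE 29). It had 6.69, 5.53 and 5.55 CPM in RBM17 knockdown, 3.14, 2.34 and 2.83 CPM in U2SURP knockdown, 1.65, 1.20 and 1.18 CPM in CHERP knockdown and 5.21, 4.47 and 5.14 CPM in control libraries. CHERP knockdown fell to 27.2% of control (-1.88 ± 0.13, adjusted p = 5.06e-11) and U2SURP knockdown to 56.1% (-0.83 ± 0.12, adjusted p = 7.57e-06), with no overlap between these groups and control or each other. PCDH1 in RBM17 knockdown was above control in all 3 libraries without passing the test (0.26 ± 0.12, adjusted p = 0.0704), and passed it with DESeq2 size factors (0.32, adjusted p = 0.0288). RBM17 knockdown exceeded CHERP knockdown in PCDH1 by 2.14 ± 0.13 (adjusted p = 3.38e-12), the smallest p of any member in that contrast.

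PCDH17, PCDH18 and PCDH19 are delta protocadherins whose cytoplasmic parts recruit the WAVE regulatory complex of actin assembly (shown for PCDH18 in zebrafish). PCDH17 had 2.24, 1.82 and 1.72 CPM in RBM17 knockdown, 0.897, 0.703 and 0.603 CPM in U2SURP knockdown, 1.04, 0.838 and 1.01 CPM in CHERP knockdown and 1.47, 1.59 and 1.63 CPM in control libraries. It was lower in U2SURP knockdown (-1.09 ± 0.15, adjusted p = 2.05e-06) and in CHERP knockdown (-0.70 ± 0.14, adjusted p = 0.00031). These knockdowns overlapped, and their direct contrast did not pass the test (-0.39 ± 0.15, adjusted p = 0.052). PCDH18 had 4.87, 4.82 and 4.58 CPM in RBM17 knockdown, 3.37, 3.03 and 2.62 CPM in U2SURP knockdown, 2.49, 2.09 and 1.75 CPM in CHERP knockdown and 4.07, 4.11 and 4.05 CPM in control libraries. It was lower in CHERP knockdown (-0.95 ± 0.11, adjusted p = 1.69e-07) and less so in U2SURP knockdown (-0.44 ± 0.11, adjusted p = 0.00202), and the difference between these knockdowns passed the test (0.51 ± 0.11, adjusted p = 0.00113). Both PCDH17 and PCDH18 were above every control library in RBM17 knockdown (0.31 ± 0.14 and 0.22 ± 0.11), with adjusted p = 0.0701 and 0.0871, and 0.0334 and 0.0338 with DESeq2 size factors. PCDH17 also passed the test without RBM17 knockdown library 3 (adjusted p = 0.0446).

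PCDH19, the X-linked gene mutated in a female-limited epilepsy, had 2.89, 2.83 and 2.97 CPM in RBM17 knockdown, 2.22, 2.25 and 1.73 CPM in U2SURP knockdown, 1.66, 1.75 and 1.94 CPM in CHERP knockdown and 4.02, 3.49 and 3.73 CPM in control libraries. Every knockdown library was below every control library (-0.37 ± 0.11, -0.86 ± 0.11 and -1.07 ± 0.11 for RBM17, U2SURP and CHERP knockdown, adjusted p = 0.00479, 7.21e-07 and 1.77e-08). PCDH9, a delta protocadherin of the nervous system, had 9.77, 8.75 and 8.46 CPM in RBM17 knockdown, 8.72, 8.09 and 7.34 CPM in U2SURP knockdown, 9.24, 8.61 and 8.86 CPM in CHERP knockdown and 12.3, 12.9 and 13.1 CPM in control libraries. It was lower by a similar amount in each (-0.50, -0.66 and -0.52, each ± 0.07, adjusted p = 3.58e-06, 1.62e-07 and 3.33e-06), and no direct contrast between knockdowns passed the test. PCDH19, PCDH9, PCDHGC3 and PCDHGC4 were the 4 members called lower in all 3 knockdowns, which share their control libraries. Of all tested genes 29.3%, 22.2% and 24.6% were lower in RBM17, U2SURP and CHERP knockdown. The share lower in all 3 was not computed, so the 4 are not a result about the family.

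**Figure D5:**
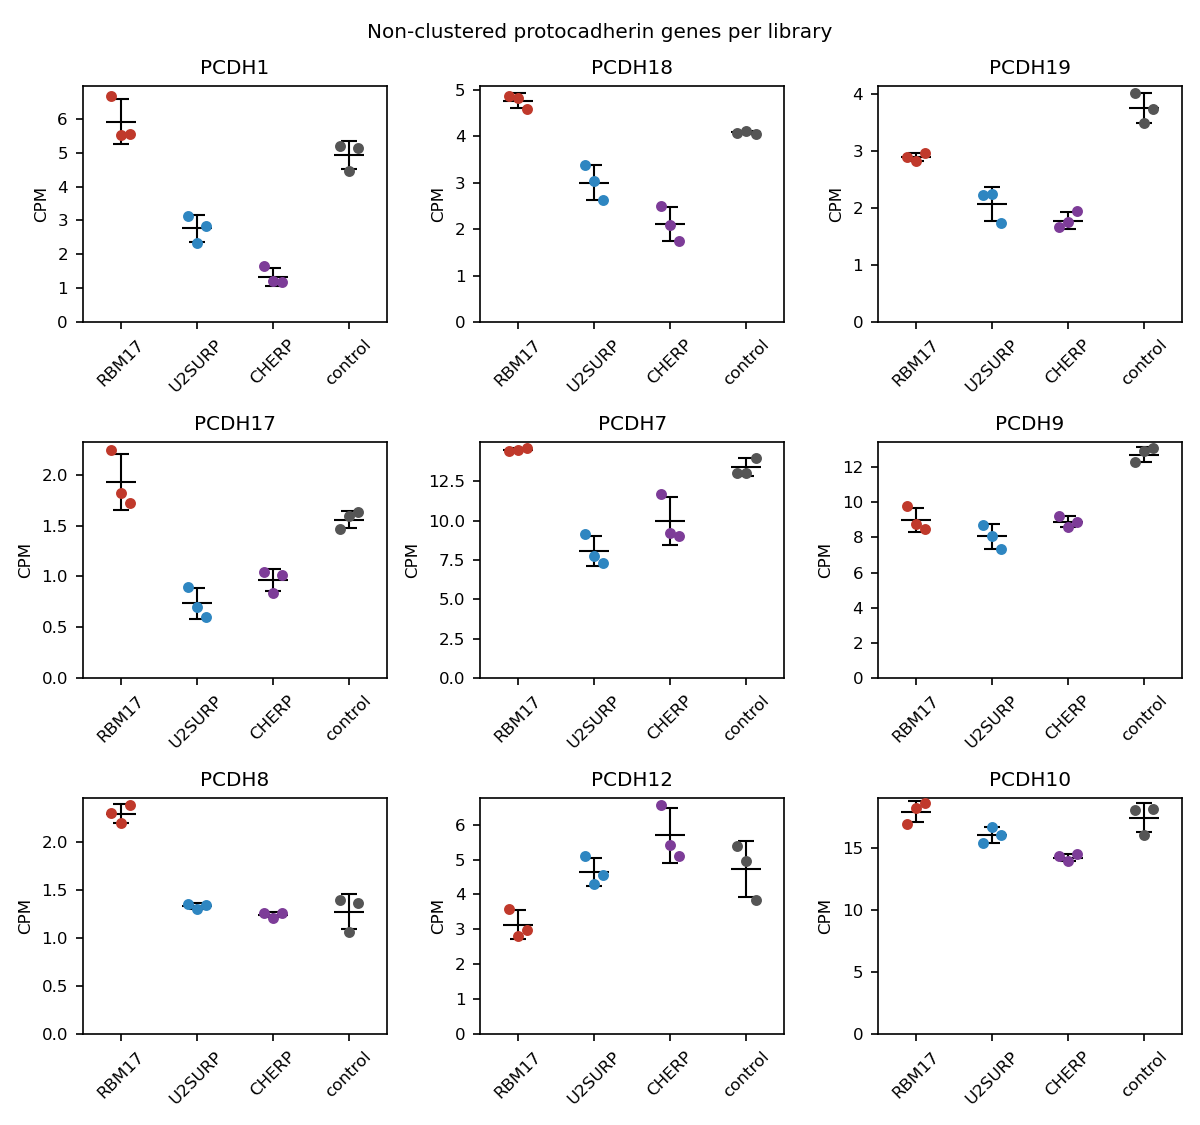
CPM (vertical axes, starting at 0) of 9 non-clustered genes in RBM17, U2SURP and CHERP knockdown and control siRNA libraries; points are libraries, bars are mean ± SD (n = 3). PCDH1 and PCDH18 step down in U2SURP and again in CHERP knockdown, PCDH8 is higher in RBM17 knockdown alone and PCDH12 is lower there.

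PCDH7, a delta protocadherin, had 14.4, 14.5 and 14.6 CPM in RBM17 knockdown, 9.17, 7.74 and 7.32 CPM in U2SURP knockdown, 11.7, 9.18 and 9.00 CPM in CHERP knockdown and 13, 13 and 14 CPM in control libraries. It was lower in U2SURP and CHERP knockdown (-0.73 ± 0.09 and -0.42 ± 0.09, adjusted p = 5.44e-07 and 0.000321). The direct contrast of U2SURP and CHERP knockdown (-0.30 ± 0.09, adjusted p = 0.0128) was lost without U2SURP knockdown library 2 (0.0604) or 3 (0.0901) or CHERP knockdown library 1 (0.136). PCDH10, which also binds the WAVE complex and held 29.9% of the non-clustered sum, had 16.9, 18.2 and 18.6 CPM in RBM17 knockdown, 15.4, 16.7 and 16 CPM in U2SURP knockdown, 14.3, 13.9 and 14.5 CPM in CHERP knockdown and 18, 16 and 18.1 CPM in control libraries. The CHERP knockdown libraries were the lowest without overlap (-0.29 ± 0.06, adjusted p = 0.000487), and U2SURP knockdown passed the test only without control library 2 (adjusted p = 0.0445, against 0.142 with it).

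PCDH8 and PCDH12 had other orders of the groups. PCDH8, the human counterpart of the activity-regulated rodent protocadherin arcadlin, had 2.30, 2.19 and 2.38 CPM in RBM17 knockdown, 1.35, 1.30 and 1.34 CPM in U2SURP knockdown, 1.26, 1.21 and 1.26 CPM in CHERP knockdown and 1.39, 1.06 and 1.36 CPM in control libraries. RBM17 knockdown stood above every other library (0.85 ± 0.12 against control, adjusted p = 1.1e-06), while U2SURP and CHERP knockdown overlapped control (adjusted p = 0.691 and 0.85). PCDH12, an endothelial protocadherin, had 3.59, 2.81 and 2.97 CPM in RBM17 knockdown, 5.09, 4.31 and 4.56 CPM in U2SURP knockdown, 6.57, 5.43 and 5.09 CPM in CHERP knockdown and 5.38, 4.97 and 3.84 CPM in control libraries. It was lower in RBM17 knockdown without overlap (-0.60 ± 0.12, adjusted p = 0.000229), and in CHERP knockdown it overlapped control (0.27 ± 0.12, adjusted p = 0.0723) but was called higher with DESeq2 size factors (adjusted p = 0.0445) and without control library 1 (0.0236). The direct contrast of RBM17 and CHERP knockdown for PCDH12 was -0.86 ± 0.12 (adjusted p = 2.8e-06). PCDH12 shares 108 exonic bases with RNF14 on the other strand, and PCDH17 shares 654 with a gene on its other strand. Whether counting used strand is not given in the sources used here. PCDH15, a component of the tip links of hair cells, was near the limit of the filter and was called in no comparison.

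Genes known to act on the clusters were examined next. Of 11 CTCF and cohesin genes, 9 were higher in RBM17 knockdown, 9 in U2SURP knockdown and 10 in CHERP knockdown, and none was lower. Over all tested genes 25.4%, 21.1% and 22.8% were higher and 29.3%, 22.2% and 24.6% lower in the same order of knockdowns. The medians of the 11 were 0.37, 0.25 and 0.34 on the log2 scale. They were -0.10, -0.02 and -0.00353 over all tested genes and 0.0599, 0.00947 and -0.00283 over tested protein-coding genes. CTCF itself rose by 0.53 ± 0.05, 0.44 ± 0.05 and 0.34 ± 0.05 and the cohesin subunit gene RAD21 by 0.52 ± 0.06, 0.46 ± 0.06 and 0.66 ± 0.06 in RBM17, U2SURP and CHERP knockdown (adjusted p at most 4.9e-06). Of 13 silencing factors linked to the clusters, 7 were higher and 1 lower in RBM17 knockdown, 8 and 1 in U2SURP knockdown and 6 and 2 in CHERP knockdown. The lower one in each was SETDB1, a histone H3 methyltransferase (-0.43 ± 0.05, -0.20 ± 0.05 and -0.23 ± 0.05), joined by WIZ in CHERP knockdown. The part of these factors in the protocadherin levels was not tested.

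Of 16 genes for protocadherin cleavage and cytoplasmic partners, 7 were higher and 3 lower in RBM17 knockdown, 6 and 6 in U2SURP knockdown and 7 and 6 in CHERP knockdown. NCSTN, a subunit of gamma-secretase, was lower in all 3 (-0.29 ± 0.05, -0.44 ± 0.05 and -0.22 ± 0.05), and NCKAP1, the WAVE complex subunit that delta protocadherins contact, was higher in all 3 (0.46 ± 0.05, 0.29 ± 0.05 and 0.48 ± 0.05). Of 34 other cadherins 27 were tested, and 6 were higher and 12 lower in RBM17 knockdown, 1 and 16 in U2SURP knockdown and 1 and 17 in CHERP knockdown, with medians of -0.08, -0.46 and -0.51. CLSTN2, a synaptic calsyntenin, changed by 0.49 ± 0.08 in RBM17 knockdown, -1.40 ± 0.08 in U2SURP knockdown and -2.18 ± 0.08 in CHERP knockdown. No test set the members against these genes, and the shares of all tested genes called are those given in the paragraph before.

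Markers of other cell types were measured beside the members. The summed fibroblast markers, 6 of 10 of which averaged under 0.1 CPM over the 12 libraries, were 15 to 16 CPM in RBM17 knockdown, 11.8 to 15.6 CPM in U2SURP knockdown, 11.1 to 14.3 CPM in CHERP knockdown and 19.4 to 23.4 CPM in control. The summed epithelial markers were 10.4 to 11.4, 9.4 to 9.93, 9.58 to 9.88 and 12.4 to 13.9 CPM in the same order of groups, with GRHL2, KRT7, KRT19 and CDH16 averaging under 0.1 CPM over the 12 libraries, and the blood markers were at most 4.87 CPM in any library. Their part in the lower gamma and non-clustered levels was not tested.

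Other protein-coding genes within 250 kb of the cluster were called in both directions. Of 23 such genes 20 were tested, and 9 were higher and 6 lower in RBM17 knockdown, 5 and 7 in U2SURP knockdown and 3 and 7 in CHERP knockdown. Their medians were 0.125, 0.083 and -0.08 on the log2 scale. Over all tested genes 25.4% were higher and 29.3% lower in RBM17 knockdown, 21.1% and 22.2% in U2SURP knockdown and 22.8% and 24.6% in CHERP knockdown. TAF7, a subunit gene of a general transcription factor that lies inside the span of the cluster, was called in no comparison with control (0.13, 0.08 and -0.08, each ± 0.06). In CHERP knockdown, 20 of 40 tested clustered members were lower and their median was -0.61. No test set these members against the neighbouring genes.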

How the data were processed

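For each of the 12 libraries, made with a stranded mRNA kit per the labels' protocols, the deposited file held raw counts by Ensembl gene ID. The submitters' processing notes name HISAT2 2.0.5, SAMtools and HTSeq with the build GRCh38. The release of the annotation, the strand setting and the overlap mode of counting were not given in the sources used here. Symbols came from GENCODE 29 (56996 of 60554 IDs matched).

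Genes with enough counts (filterByExpr) were fitted in edgeR 4.0.16 (R 4.3.3) with TMM scaling and the robust quasi-likelihood test, all 4 groups in 1 fit, Benjamini-Hochberg adjusted over 29003 genes. SE is the size of the log2 fold change divided by the root of F. The fit was first tested on simulated counts with known changes. CPM are descriptive and use TMM. DESeq2 1.42.0 served as an alternative. No libraries agreed within sampling noise.

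The members and lists were chosen with earlier results of these data known. Named with full values were the 3 most abundant members of each class, and per class and comparison up to 2 called per direction with the smallest p.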

Additional observations from a re-analysis of the deposited data

How the results depend on the processing

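Calls kept under every alternative that gave them a value, including leaving out each of the 12 libraries in turn, were 18 of 27 lower in CHERP knockdown, 9 of 12 lower and 0 of 2 higher in U2SURP knockdown, and 3 of 6 higher and 4 of 6 lower in RBM17 knockdown. The 3 higher were PCDH8, PCDHA11 and PCDHA13, and PCDHA13 passed the filter only because it was high in RBM17 knockdown. No paired analysis was possible because the labels give the groups no shared replicate numbers. The alternatives were DESeq2 size factors, the DESeq2 Wald test, no filter on low counts, a fit of the compared groups alone and protein-coding genes alone. Added after seeing the data were leaving out RBM17 knockdown library 2 with control library 3, and counting only members of at least 0.1 CPM.

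With DESeq2 size factors the beta sum in RBM17 knockdown was 115% of control and the non-clustered sum 101%. The count of members higher in RBM17 knockdown ranged from 3 to 6 over the leave-one-out fits, against 6, and was 3 among members of at least 0.1 CPM. The count higher in U2SURP knockdown was 0 to 1 under leave-one-out, and 1 with no filter, without the added pair of libraries and among members of at least 0.1 CPM. The count higher in CHERP knockdown was 1 with DESeq2 size factors, the Wald test, no filter and the fit of 2 groups, and 0 to 2 under leave-one-out. Among members of at least 0.1 CPM, 1 was lower in RBM17 than in U2SURP knockdown. The cause was not tested.

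Some differences that were not called changed sign. With 1 library (or the added pair) left out, the log2 fold change in RBM17 knockdown ranged from -0.209 to 0.105 for PCDHGB2 and -0.0118 to 0.0824 for PCDH10, which was -0.0255 with protein-coding genes alone. In U2SURP knockdown the range was -0.19 to 0.882 for PCDHA12, -0.179 to 0.428 for PCDHAC1, -0.657 to 0.507 for PCDHA13, -0.0588 to 0.317 for PCDHB11, -0.049 to 0.138 for PCDH8 and -0.153 to 0.0781 for PCDH12, which was 0.0043 with DESeq2 size factors and 0.0046 by the Wald test. In CHERP knockdown it was -0.465 to 0.38 for PCDHB6 and -0.147 to 0.0394 for PCDH8. Over all values computed for single genes, 1216 kept their direction and side of the threshold, 97 lost a call, 22 gained one and 25 changed sign.

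Low counts limit PCDHA12, PCDHAC1, PCDHB6, PCDHGA8 and, in CHERP knockdown, PCDHA13, whose calls against control were lost when single libraries were left out. Multi-mapping reads between similar beta and gamma genes, and the shared constant exons, were not separable in these counts.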
